A study of Mus musculus with 32 samples.

Results

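Livers of mice that had undergone partial hepatectomy were compared with livers of mice that had not, on standard diet and without drug, in 8 of the 32 livers of a larger series. The groups were taken from the sample labels: 4 livers came from male C57/BL6 mice fed standard diet for 3 weeks, and 4 from male C57/BL6 mice killed 2 weeks after removal of 70% of the liver, with the same diet before and after surgery. None of the 8 mice received the dual agonist of GLP1R and GCGR (the glucagon-like peptide 1 and glucagon receptors) that was given in other groups of the series, and none was fed the methionine and choline deficient diet used there. The operated mice were therefore also on the diet for longer and older at death, and no sham operation is described in the labels. The labels call the 4 samples of each group biological replicates, so the p-values below rest on the spread between livers.

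Loss of liver mass triggers a rapid response in the remaining lobes, in which hepatocytes leave quiescence, replicate their DNA and divide until mass is restored. Kupffer cells, the resident macrophages of the liver, sense the injury and release cytokines that prime hepatocytes, while growth factors such as Hgf and the ligands of Egfr drive them through the cell cycle. In mice the bulk of this growth is over well before the time studied here, and matrix, vessels and metabolic zonation are then rebuilt.

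RNA was measured with 1-colour Agilent arrays. A level is given below as log2 of the background-subtracted signal minus the 75th percentile of its array, so 0 is a fairly bright probe and values under about -4 lie near the background. On the 8 arrays, 47.2% to 69.2% of the probes gave a signal well above background, and no spot was saturated. The 75th percentile itself was 209 to 395 on the unoperated and 472 to 778 on the operated arrays. The same dim signal thus takes a higher level on the unoperated arrays, and the part of this in differences of dim probes was not tested. All 18 hepatocyte markers tested were well above background on all 8 arrays, among them Alb, Apoa1, Ttr, Hnf4a, Asgr1 and Cps1. The standard diet arrays correlated with each other at 0.962 or more over the tested genes, and hepatectomy replicates 2 to 4 at 0.981 or more. Hepatectomy replicate 1 stood apart, with correlations of 0.94 to 0.956 to the other hepatectomy arrays, and the main results are therefore given with and without it. Where a gene is called and no second value is printed, the call held without it. The 12 largest rises and 12 largest falls were named only among genes called with and without replicate 1 whose groups did not overlap. For genes named by this rule, neither trait is a result. The 4 unoperated livers lay on slide 1 and the 4 operated livers on slide 3, read in different scan sessions, so that slide, scan session and hepatectomy cannot be told apart in any value below. In a bulk sample, a change in the number of cells of a type and a change in RNA per cell cannot be told apart either.

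Of 21710 genes tested, 2989 (13.8%) differed after hepatectomy at an adjusted p under 0.05 in limma, with 1374 higher (6.33%) and 1615 lower (7.44%). Without replicate 1 the number fell to 1571 (7.24%), with 765 higher (3.52%) and 806 lower (3.71%), and 1490 genes (6.86%) passed in both analyses. List counts below are to be read beside these shares of all genes. The spread was estimated over all 8 groups of the series, and with only the 8 arrays compared 1063 genes passed. In that analysis the lists described below also had fewer calls: 8 mitosis, 7 Kupffer cell, 4 recruited macrophage, 3 class II, 4 neutrophil, 4 matrix, 1 interferon and 1 chemokine gene, and 0 DNA replication genes (7 at an unadjusted p under 0.05 in limma). The balance of directions followed the scaling: 1374 higher and 1615 lower with the 75th percentile became 1726 and 822 when each array was scaled to its median, 1833 and 1227 after quantile normalization, and 1132 and 3373 after normexp background correction. The median log2 difference over all genes was -0.07 (-0.01 without replicate 1), and moved to 0.09 with median scaling, 0.06 with quantile normalization and -0.23 with normexp. Replicate 1 was the farthest of the 4 operated livers from the unoperated group in 56.8% of the higher and 55.9% of the lower genes, and replicate 3 was the nearest in 48.0% and 38.9%.

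**Figure D1:**
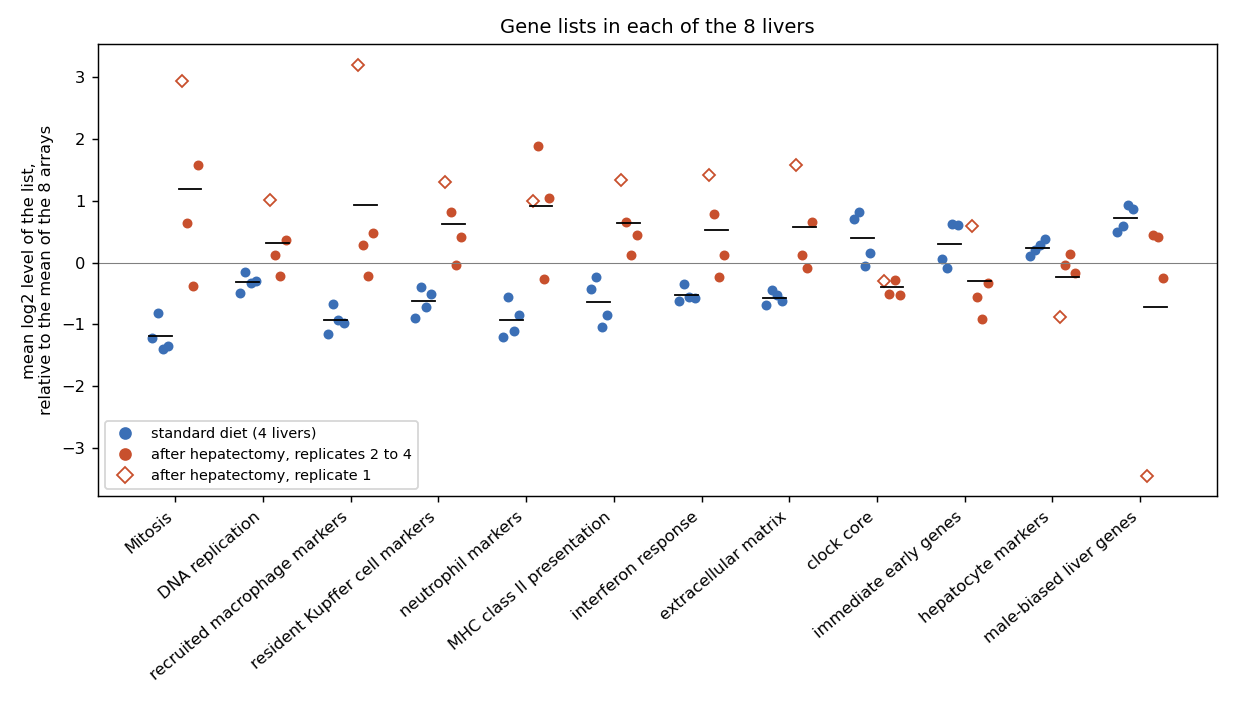
Mean log2 level of 12 gene lists in each liver, relative to the mean of the 8 arrays, with unoperated livers in blue, operated livers in orange, replicate 1 as an open diamond and group means as bars. For the mitosis list the operated livers lie at 2.94, 0.65, -0.39 and 1.58 and the unoperated livers between -1.40 and -0.81.

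Genes of mitosis were higher in the operated livers. Of 20 mitosis genes tested, 17 rose and none fell, against 6.33% of all genes higher, and the median log2 difference was 2.21 against -0.07 over all genes. Without replicate 1, 7 of the 20 passed and the median was 1.55, and with normexp background correction 9 passed with a median of 1.11. In unoperated replicates 1 to 4, 7, 2, 7 and 9 of the 20 genes were not well above background, and in the operated ones 0, 2, 6 and 0. Over the 10 genes well above background on all 8 arrays 9 rose, with a median of 2.21. All 20 genes were highest in replicate 1 and lowest in replicate 3 among the operated livers. Arrays of the groups did not overlap in 14 of the 20, higher after surgery, beside 7.66% of all genes not overlapping in that direction and 9.87% in the other. Mean levels of the list were 2.94, 0.65, -0.39 and 1.58 in operated replicates 1 to 4 and -1.22, -0.81, -1.40 and -1.34 in the unoperated livers, without overlap.

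Top2a, the topoisomerase that untangles replicated chromosomes, lay at -6.68, -4.98, -6.52 and -5.80 in the unoperated livers and at -0.19, -2.47, -3.91 and -1.56 in the operated ones. Its probe was well above background on no unoperated array and on 3 operated ones, so only a bound can be given: the operated mean was at least 6.81-fold higher than the limit of measurement in the unoperated arrays (adjusted p = 0.00136, and 0.01 without replicate 1). Every operated liver lay above every unoperated one, and the call was lost after normexp correction (0.87).

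Prc1, which bundles microtubules of the spindle midzone, lay at -3.28, -3.73, -3.75 and -2.89 without surgery and at 1.79, -0.49, -1.93 and 0.56 after it. The log2 difference was 3.40 with a standard error of 0.70 (adjusted p = 0.00242), and 2.79 without replicate 1 (adjusted p = 0.0168). The groups did not overlap, and the lowest operated liver was again replicate 3. Cenpe, a kinetochore motor, rose by 3.17 on the log2 scale, Anln, a scaffold of the cleavage furrow, by 3.14, and Ccnb2, a cyclin that activates Cdk1, by 1.86, with adjusted p-values without replicate 1 of 0.0158, 0.0256 and 0.0261.

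Mki67, the usual marker of cycling cells, lay between -2.12 and -1.46 in the unoperated livers and at 2.73, -0.13, -1.60 and 1.28 in the operated ones. Its log2 difference was 2.34 (SE 0.63, adjusted p = 0.0147), but replicate 3 fell inside the unoperated range, and without replicate 1 the adjusted p was 0.0924.

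Genes of DNA replication moved less than those of mitosis. Of 24 tested, 7 rose and none fell, with a median log2 difference of 0.63, and only Uhrf1 passed without replicate 1. Uhrf1, which recruits the maintenance DNA methyltransferase to new strands, lay between -3.48 and -3.21 without surgery and at 0.92, -1.56, -2.53 and -0.61 after it, a difference of 2.43 (SE 0.54, adjusted p = 0.00376) that lost its call after normexp correction (0.98). Mcm6, a subunit of the replicative helicase, lay at 0.74, 0.34, 2.16 and 2.13 without surgery and at 4.45, 2.84, 1.85 and 3.1 after it, and its difference of 1.72 was no longer called without replicate 1 (adjusted p = 0.0523). The ranges of Mcm6 overlapped, because unoperated replicates 3 and 4 lay above operated replicate 3.

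The list of D cyclins and inhibitors of cyclin-dependent kinases held 13 tested genes, of which 2 rose with replicate 1 and none without it. Cdkn2d and Cdkn2c, inhibitors of Cdk4 and Cdk6, were those 2, with differences of 1.06 and 1.55 (adjusted p = 0.074 and 0.0758 without replicate 1). Ccnd1, the D cyclin that carries hepatocytes out of quiescence, lay at 1.70, 2.63, 2.89 and 2.24 without surgery and at 4.58, 4.06, 2.91 and 3.34 after it. The groups of Ccnd1 did not overlap, but its difference of 1.35 missed the threshold (SE 0.48, adjusted p = 0.058) and passed it under the other scalings (1.51 with median scaling, 1.53 after quantile normalization). Cdkn1a, the p53-induced inhibitor, and Myc differed by 0.60 and 0.46 (adjusted p = 0.614 and 0.529), and 2 of 18 p53 targets rose (1 rose and 1 fell without replicate 1).

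The promoters of mitotic genes are known for CCAAT boxes, bound by NF-Y, and for the cell cycle homology element, through which these genes are silenced in resting cells. The 250 bases before the start site of 3 members are shown to make this arrangement visible, from RefSeq on GRCm38.p6, 5′ to 3′ on the strand of the gene. Capitals mark CCAAT and TTTGAA on either strand (ATTGG and TTCAAA on the reverse). Ccnb2 lies at chr9:70421555-70421804 on the minus strand, Cdc20 at chr4:118437344-118437593 on the minus strand and Top2a at chr11:99024190-99024439 on the minus strand.
Ccnb2: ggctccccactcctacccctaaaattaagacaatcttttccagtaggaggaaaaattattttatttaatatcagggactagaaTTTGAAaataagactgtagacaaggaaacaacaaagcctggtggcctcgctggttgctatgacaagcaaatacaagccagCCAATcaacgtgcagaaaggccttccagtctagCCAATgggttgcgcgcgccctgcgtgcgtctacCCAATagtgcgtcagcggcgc
Cdc20: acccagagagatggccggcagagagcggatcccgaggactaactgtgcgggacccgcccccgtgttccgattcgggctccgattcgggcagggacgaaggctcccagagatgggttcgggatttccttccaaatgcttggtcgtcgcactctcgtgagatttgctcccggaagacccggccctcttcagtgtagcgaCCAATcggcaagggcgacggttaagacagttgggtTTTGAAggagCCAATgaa
Top2a: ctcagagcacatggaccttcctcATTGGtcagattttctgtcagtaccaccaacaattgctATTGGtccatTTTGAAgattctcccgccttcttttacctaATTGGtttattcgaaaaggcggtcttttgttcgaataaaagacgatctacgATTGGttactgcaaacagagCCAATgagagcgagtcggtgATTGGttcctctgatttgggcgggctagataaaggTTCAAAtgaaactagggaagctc
Ccnb2 holds 3 CCAAT boxes, starting 87, 54 and 21 bases before the start site. Cdc20, the activator of the anaphase-promoting complex, was chosen for display after its values were seen, and rose by 2.87 (adjusted p = 0.00747, and 0.0439 without replicate 1); it holds TTTGAA 18 bases before the start with CCAAT boxes at 53 and 8 bases. Top2a holds 6 CCAAT boxes on the 2 strands together. CCAAT stood in the 250 bases of 13 of the 16 tested mitosis genes in the promoter table and in 33.8% of all 32851 promoters, and TTTGAA in 8 of 16 and in 16%. A gene of the list was counted once if any of its promoters held the letters, whereas the share over all is per promoter (32851 promoters of 27025 genes). The 2 shares are therefore not in the same unit. A match is a description of these letters, not a binding site.

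Of 24 growth factors of regeneration and their receptors tested, none rose and 4 fell (2 without replicate 1), beside 7.44% of all genes lower. Erbb3, a receptor of the Egfr family that hepatocytes express, lay at 0.41, -0.94, -0.51 and -0.47 without surgery and at -2.39, -2.10, -1.36 and -1.70 after it, a difference of -1.51 (SE 0.28, adjusted p = 0.000881, and 0.0063 without replicate 1). Tgfa, an Egfr ligand that hepatocytes make themselves, lay between -1.68 and -1.18 without surgery and between -2.45 and -2.21 after it, a difference of -0.94 (adjusted p = 0.006). Neither gene's groups overlapped. Hgf differed by 0.64, its receptor Met by -0.29 and Egfr by -0.53, with adjusted p-values of 0.249, 0.376 and 0.485. Egfr was 3.42 in operated replicate 1 against 5.62 to 5.87 in the other operated livers, and without that liver its difference was 0.05.

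Immediate early genes, the transcription factors and feedback regulators that surge within hours of surgery, were partly lower at this time, and none rose. Of 23 tested, 6 fell, with a median log2 difference of -1.0 (3 lower and -1.10 without replicate 1), and 3 and 4 fell with median scaling and after quantile normalization. Zfp36, which destabilises cytokine mRNA, lay at 0.62, 0.43, 1.11 and 0.26 without surgery and at -3.01, -2.14, -3.01 and -2.40 after it. Its difference of -3.25 had a standard error of 0.44 (adjusted p = 4.85e-05), and was -3.13 without replicate 1 (adjusted p = 0.000424). The groups were far apart, and the operated livers lay close together.
Fos differed by -2.18 (adjusted p = 0.0172, and 0.0138 without replicate 1) with overlapping groups. Egr1 differed by -1.52 (adjusted p = 0.0376, and 0.0709 without replicate 1) and also lost the call under median scaling (-1.36) and quantile normalization (-1.33). Atf3 and Socs3, the latter the feedback inhibitor of IL-6 signalling, gave -0.68 and -0.92 (adjusted p = 0.599 and 0.178), and 1 of 14 genes of IL-6 and STAT3 feedback rose and 1 fell.

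**Figure D2:**
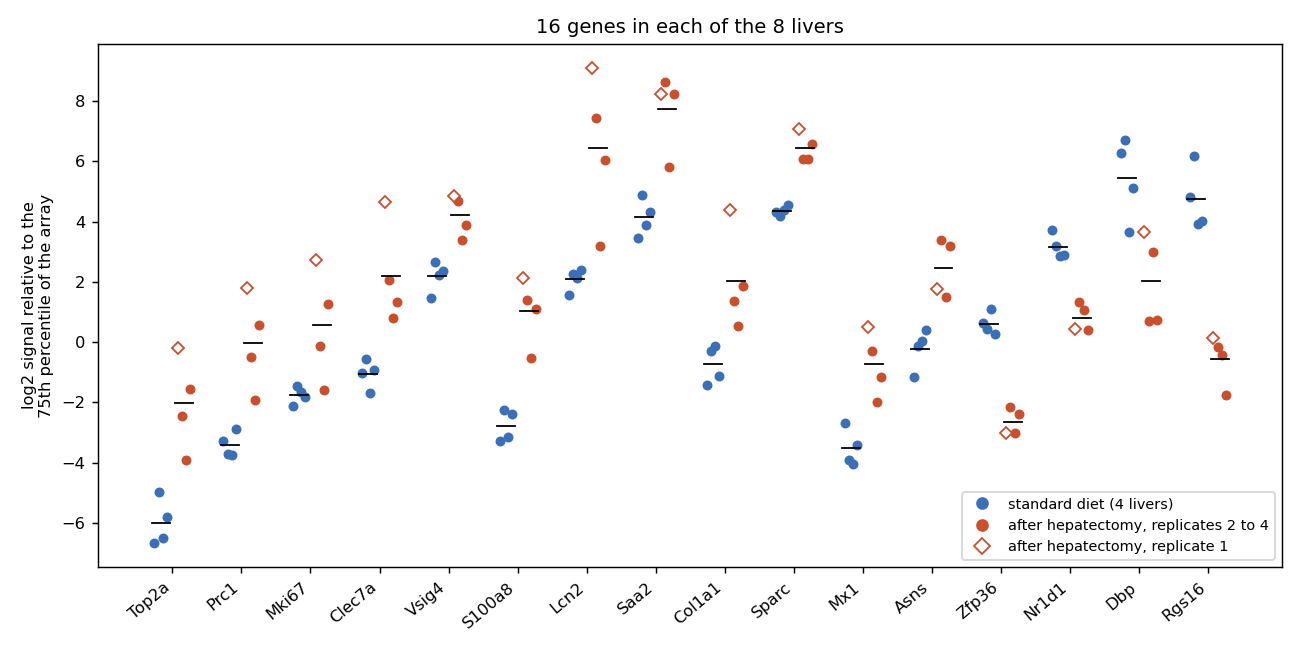
Level of 16 genes in each liver as log2 signal relative to the 75th percentile of the array, with unoperated livers in blue, operated livers in orange, replicate 1 as an open diamond and group means as bars. For Top2a to Mx1 the open diamond is the highest or among the highest operated livers, whereas for Asns to Rgs16 it lies within the operated group's range or near its edge.

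Macrophage genes were higher in the operated livers. Of 17 markers of resident Kupffer cells, 12 rose and none fell, with a median log2 difference of 1.74, and 7 passed without replicate 1 with a median of 1.45. Of 18 markers of recruited macrophages, 10 rose and none fell, with a median of 2.11 (2.05 with the gene that has only a bound set at it), and 4 passed without replicate 1 with a median of 1.18. The summed signal of the Kupffer markers, in multiples of the 75th percentile, ran from 239.9 to 308.2 in the unoperated and from 289.6 to 761 in the operated livers. That of the recruited macrophage markers ran from 55.9 to 124.3 and from 91.0 to 429.5, so both sums overlapped between the groups.

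Vsig4, the complement receptor that defines Kupffer cells, lay at 1.47, 2.66, 2.21 and 2.37 without surgery and at 4.86, 4.70, 3.38 and 3.90 after it, a difference of 2.03 (SE 0.45, adjusted p = 0.00364, and 0.0207 without replicate 1). Timd4, a receptor for dying cells that marks long-lived Kupffer cells, differed by 1.79 and Csf1r, the receptor for macrophage colony stimulating factor, by 1.74, with adjusted p-values of 0.024 and 0.0442 without replicate 1. Timd4 lost its call after normexp correction (0.81), and 1 of the 3 probes for Csf1r went the other way. Folr2 and Cd5l, also made by resident macrophages, rose by 1.80 and 1.72, and C1qb, a chain of complement C1q that macrophages make, by 1.94 with replicate 1 and without a call when it was left out (adjusted p = 0.054).

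Clec7a, the beta-glucan receptor Dectin-1 of recruited myeloid cells, lay at -1.03, -0.57, -1.68 and -0.92 without surgery and at 4.67, 2.06, 0.78 and 1.32 after it. Its difference was 3.25 (SE 0.65, adjusted p = 0.00181) and 2.43 without replicate 1 (adjusted p = 0.0126). Replicate 1 was far above the other operated livers, and all 4 operated livers lay above the unoperated ones. Cx3cr1, the fractalkine receptor, Msr1, a scavenger receptor, and Lyz2, lysozyme, rose by 3.14, 2.65 and 2.64, and each kept its call without replicate 1.

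Chil3, a chitinase-like protein of alternatively activated macrophages, had the largest rise by the naming rule. It lay between -4.94 and -3.95 without surgery, well above background on 2 of 4 arrays, and at 4.93, -0.13, -2.60 and -0.53 after it. The difference of 4.88 (SE 1.13, adjusted p = 0.00515) shrank to 3.37 without replicate 1 (adjusted p = 0.0337), and that liver lay far above the other operated ones. F13a1, the coagulation factor subunit that macrophages make, and Sirpb1b, a myeloid signal regulatory protein, rose by 3.88 and 3.54.

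Genes of class II antigen presentation also rose: 9 of 14 were higher and none lower, with a median of 1.30, and 3 passed without replicate 1. H2-Ab1 lay at 3.50, 4.76, 3.98 and 3.19 without surgery and at 7.12, 5.73, 4.99 and 5.43 after it, a difference of 1.96 (SE 0.41, adjusted p = 0.00278, and 0.0198 without replicate 1). H2-Aa, the partner chain, also differed by 1.96. The groups did not overlap for either chain.

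Of 14 neutrophil markers, 4 rose and none fell, and the same number passed without replicate 1, with medians of 1.55 and 1.66. Over the 7 well above background on all 8 arrays 3 rose with a median of 0.68, and after normexp correction the median was 0.75. S100a8, a calcium-binding protein stored in neutrophils, lay at -3.29, -2.24, -3.17 and -2.38 without surgery and at 2.13, 1.39, -0.54 and 1.10 after it, a difference of 3.79 (SE 0.65, adjusted p = 0.000548, and 0.00395 without replicate 1). Its partner S100a9 differed by 2.94 and Prtn3, a granule protease, by 3.74, and Lcn2, described with the acute phase genes, was the other called member. The granule genes Ltf and Mpo were well above background on no unoperated array and missed the threshold. The summed signal of the list ran from 59.0 to 98.1 in the unoperated and from 127 to 653.9 in the operated livers. Lcn2, with a mean level of 2.09 without surgery and 6.45 after it, made up most of the 2 highest sums. These were 653.9 and 279.2, in operated replicates 1 and 2, so the size of the rise in the sum largely follows that gene.

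Lists of the other cell types changed less. Of 22 markers of T, NK, B and plasma cells 4 rose and 1 fell (1 and 0 without replicate 1). Their summed signal was 75 to 158.5 without surgery and 43.5 to 78.7 after it, so the sum and the count pointed opposite ways. On average most of the sum came from 1 bright T cell marker, with a mean level of 6.48 without surgery and 5.30 after it. The sum therefore follows that marker rather than the list. Of the other markers, 1 of 26 endothelial markers fell, 1 of 22 stellate cell and fibroblast markers rose and 1 fell, and none of 19 cholangiocyte and progenitor markers, 8 mesothelial markers, 8 adipocyte markers or 6 muscle and gallbladder genes passed in limma. At an unadjusted p under 0.05 these 4 lists had 3 higher and 1 lower, 2 higher, 3 lower, and 1 in each direction. Of 13 erythroid genes 1 rose and 2 fell, and of 14 pancreatic acinar genes 1 fell. Whether any of these cell types contributed to the differences in other lists was not tested.

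The acute phase response, the set of plasma proteins that hepatocytes make under inflammation, was divided. Of 24 acute phase genes 6 rose and 1 fell, with a median of only 0.17, and 4 rose and none fell without replicate 1. Lcn2, an iron-siderophore binding protein made by hepatocytes and neutrophils, lay at 1.58, 2.26, 2.11 and 2.40 without surgery and at 9.11, 7.43, 3.20 and 6.05 after it, a difference of 4.36 (SE 0.99, adjusted p = 0.00464). Without replicate 1 the difference was 3.47 (adjusted p = 0.0312), and every operated liver still lay above the unoperated ones. Saa2 lay at 3.46, 4.90, 3.87 and 4.32 without surgery and at 8.24, 8.65, 5.81 and 8.24 after it, a difference of 3.59 (adjusted p = 0.00367, and 0.0162 without replicate 1). Saa1 differed by 3.02 (adjusted p = 0.0102, and 0.0379 without replicate 1) and Orm3, an orosomucoid, by 3.90 (adjusted p = 0.0083, and 0.0459 without it), again with replicate 3 as the mildest operated liver.

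Saa1 and Saa2, which encode the serum amyloid A proteins, are neighbouring copies, and their upstream sequences are shown because of how alike they are. The 250 bases before each start site, on GRCm38.p6, span chr7:46742981-46743230 on the minus strand for Saa1 and chr7:46751583-46751832 on the plus strand for Saa2, and were taken from RefSeq. Capitals mark a loose form of the NF-kappaB site, GGG and CC with 5 bases of any kind between them, which 45.8% of all promoters of this length hold on either strand.
Saa1: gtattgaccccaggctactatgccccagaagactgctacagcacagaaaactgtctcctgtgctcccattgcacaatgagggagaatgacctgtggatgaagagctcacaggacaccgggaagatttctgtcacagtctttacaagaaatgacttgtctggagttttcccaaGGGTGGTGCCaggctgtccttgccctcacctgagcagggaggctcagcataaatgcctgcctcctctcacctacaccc
Saa2: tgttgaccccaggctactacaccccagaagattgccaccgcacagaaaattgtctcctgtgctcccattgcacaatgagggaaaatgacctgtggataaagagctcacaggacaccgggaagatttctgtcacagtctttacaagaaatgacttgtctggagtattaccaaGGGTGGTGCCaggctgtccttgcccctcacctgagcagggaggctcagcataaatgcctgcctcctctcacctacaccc
The alignment held 238 identical bases in 251 columns (94.8%). Whether each array probe reads only its own transcript was not tested, and the same holds for Orm3 and other multigene families named here.

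Complement and coagulation genes were near the background share, with 3 of 35 higher, all chains of C1q, and 1 lower. Without replicate 1, 1 was higher (F9, coagulation factor IX) and none lower. F9 and Slc39a4 are named after their values were seen. Hamp, the iron hormone hepcidin, was 8.13 to 8.62 in the unoperated livers and 7.37, 8.30, 5.99 and 4.41 in the operated ones, a difference of -1.80 that missed the threshold (adjusted p = 0.0653). The metallothioneins Mt1 and Mt2, which buffer zinc, differed by 2.51 and 2.95 (adjusted p = 0.0191 and 0.0181) but by 1.79 and 2.06 without replicate 1 (adjusted p = 0.111 and 0.106), and 3 of 23 genes of iron and metal handling rose in all, 1 of them (Slc39a4, a zinc importer) without replicate 1.

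Matrix genes rose broadly. Of 30 genes of the extracellular matrix 15 rose and none fell, with a median log2 difference of 1.03, and 8 passed without replicate 1 with a median of 0.82. Sparc, a collagen-binding matricellular protein, lay at 4.31, 4.20, 4.38 and 4.55 without surgery and at 7.08, 6.08, 6.08 and 6.59 after it. Its difference of 2.10 had a standard error of only 0.22 (adjusted p = 5.89e-06), and was 1.89 without replicate 1 (adjusted p = 2.93e-05). The groups were well separated, and the other operated livers lay close to each other.
The fibrillar collagens Col1a1, Col1a2 and Col3a1 rose by 2.77, 2.25 and 2.34, with adjusted p-values of 0.00508, 0.000881 and 0.00033, and all 3 kept their calls without replicate 1 (1.98, 1.73 and 1.90). Col1a1 lay at -1.44, -0.29, -0.12 and -1.12 without surgery and at 4.39, 1.35, 0.52 and 1.85 after it. Timp1, the inhibitor of matrix metalloproteases, lay between -5.40 and -3.73 without surgery and at 2.91, -1.72, -2.80 and -0.63 after it, a difference of 3.78 (adjusted p = 0.00584) that lost its call after normexp correction (1.76). Loxl4, a collagen crosslinking enzyme, differed in that replicate 1 was not the highest: it lay at -0.92 in that liver, the lowest of the 4, and its difference of 2.98 was 3.24 without it. Among TGF-beta and BMP signalling genes 2 of 26 rose and 2 fell, near the shares of all genes (6.33% higher and 7.44% lower). Of 14 Hippo and YAP targets 3 rose. Without replicate 1, 1 TGF-beta gene fell and none rose, and 2 Hippo targets rose and 1 fell.

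Interferon-induced genes leaned upward as a list: 9 of 29 rose and none fell, all 29 differences were above 0, and the median was 1.05. Without replicate 1, 3 passed with a median of 0.79. Mx1, an antiviral GTPase, lay at -2.67, -3.93, -4.06 and -3.43 without surgery and at 0.49, -0.28, -1.98 and -1.14 after it, a difference of 2.79 (SE 0.47, adjusted p = 0.000505, and 0.00371 without replicate 1). Its probe was well above background on 1 of 4 unoperated arrays. Rtp4, a chaperone induced by interferon, rose by 1.62 (adjusted p = 0.00292, and 0.0207 without replicate 1).

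Of 26 chemokines and cytokines 7 rose and none fell, and 2 passed without replicate 1, with medians of 1.22 and 0.74. Cxcl14, a chemokine for monocytes and dendritic cells, lay at -0.74, 0.16, 0.47 and 0.33 without surgery and at 4.43, 2.52, 1.25 and 2.95 after it, a difference of 2.73 (adjusted p = 0.00476, and 0.0315 without replicate 1). Ccl24, an eosinophil chemokine of macrophages, differed by 2.70 with replicate 1 and by 1.96 at the edge of the threshold without it (adjusted p = 0.05). Il1b, the inflammasome cytokine, differed by 1.52 and was not called without replicate 1 (adjusted p = 0.0716).

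**Figure D3:**
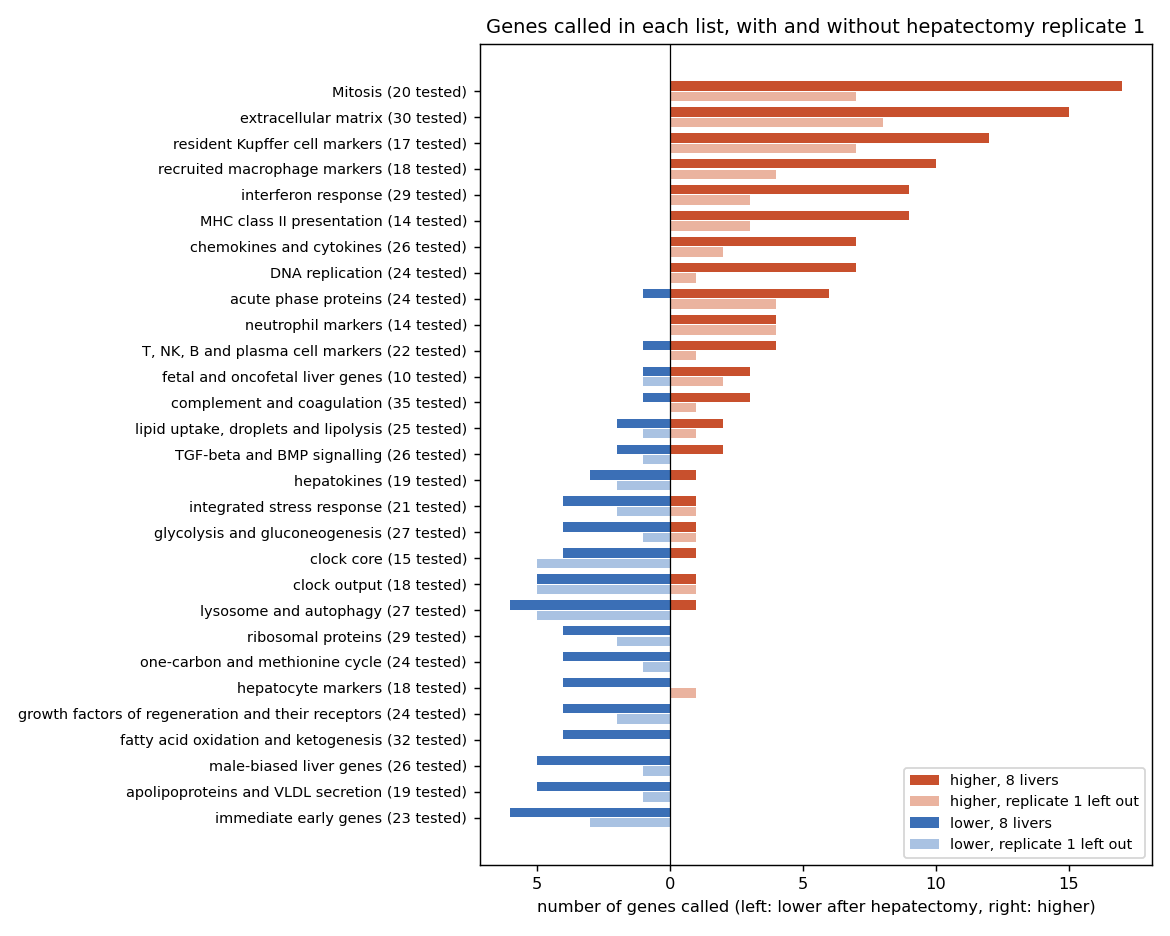
Number of genes called in each list with at least 4 called genes (adjusted p under 0.05), higher to the right and lower to the left, with all 8 livers in dark bars and without hepatectomy replicate 1 in pale bars. Mitosis goes from 17 to 7 and the extracellular matrix from 15 to 8, while neutrophil markers stay at 4 and the clock core goes from 4 to 5 lower.

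Part of the clock genes fell, about as many with as without replicate 1. Of 15 core clock genes 4 fell and 1 rose (5 and 0 without replicate 1), with medians of -0.84 and -0.89, and of 18 clock output genes 5 fell and 1 rose in both analyses. Nr1d1, the repressor REV-ERB alpha, lay at 3.73, 3.20, 2.85 and 2.90 without surgery and at 0.43, 1.33, 1.07 and 0.40 after it, a difference of -2.36 (SE 0.47, adjusted p = 0.00171, and 0.00892 without replicate 1). The groups of Nr1d1 did not overlap. Bhlhe40, the clock repressor DEC1, lay between 3.96 and 4.35 and between 1.96 and 2.51, a difference of -1.83 (adjusted p = 0.000825, and 0.00302 without replicate 1).

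Dbp, an output factor with a steep daily rhythm, lay at 6.28, 6.70, 3.66 and 5.10 without surgery and at 3.67, 0.69, 3.00 and 0.74 after it, a difference of -3.41 (adjusted p = 0.0076) with overlapping groups. Its relative Hlf differed by -1.13 (adjusted p = 0.00373). Arntl, the activator BMAL1, which Nr1d1 represses, was the core gene that rose, at -1.42, -1.10, 0.41 and 0.08 without surgery and 0.47, 1.41, 1.33 and 2.20 after it (1.86, adjusted p = 0.0496, and 0.0522 without replicate 1), and it lost the call with median scaling (2.02). Unoperated replicates 1 and 2 were higher in Dbp and lower in Arntl than replicates 3 and 4, so the clock genes also varied within that group. Per2 differed by -0.92 (adjusted p = 0.25). The hour of death is not given in the sources used here, and its part in these differences was not tested.

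Ciart, a repressor of the CLOCK and BMAL1 pair, is shown because its promoter holds the E-box, CACGTG, more than once. The 250 bases at chr3:95882229-95882478 on the minus strand of GRCm38.p6 (RefSeq) carry it 116, 58 and 44 bases before the start site, in capitals. CACGTG, which reads the same on both strands, stood in 6.02% of all promoters and in 3 of the 11 tested core clock genes in the promoter table. As for CCAAT, the first share is per promoter and the second per gene.
Ciart: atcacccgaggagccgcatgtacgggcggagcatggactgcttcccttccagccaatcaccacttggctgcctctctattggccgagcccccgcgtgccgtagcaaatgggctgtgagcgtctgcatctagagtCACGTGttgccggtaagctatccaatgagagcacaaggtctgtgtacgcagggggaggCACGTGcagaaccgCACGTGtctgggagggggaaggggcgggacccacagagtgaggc
Ciart was well above background on 3 unoperated arrays and on no operated one, at -2.99, -1.69, -5.27 and -3.82 against -4.21, -6.20, -6.49 and -7.19. The unoperated mean was at least 2.61-fold higher than the limit of measurement in the operated arrays (adjusted p = 0.0323, and 0.0194 without replicate 1).

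The largest falls by the naming rule were Rgs16 and Ppp1r3g. Rgs16, which shortens G protein signals and is rhythmic in hepatocytes, lay at 4.83, 6.19, 3.93 and 4.02 without surgery and at 0.12, -0.16, -0.42 and -1.75 after it, a difference of -5.30 (SE 0.98, adjusted p = 0.001) and of -5.52 without replicate 1 (adjusted p = 0.00323). No operated liver came near an unoperated one. Ppp1r3g, a regulatory subunit that directs protein phosphatase 1 to glycogen, lay at 1.03, 2.44, 1.65 and 0.98 without surgery and at -4.34, -3.27, -1.36 and -1.36 after it, a difference of -4.11 (adjusted p = 0.00151, and 0.011 without replicate 1).
Beside Zfp36, the other falls by the rule were Tbx22, Olfr433, Hdgfl1, Mrgprg, Dcc, Fcgbp, Trim42, Gab3 and Olfr481, with differences from -3.99 to -3.0. All of these but Dcc and Gab3 had operated means under -4, near the background, and the part of array brightness in their falls was not tested. Olfr433, Hdgfl1 and Olfr481 were well above background on no operated array and were at least 6.74-fold, 5.78-fold and 4.11-fold lower. Dcc and Gab3 were bright in all livers, at 7.29 to 8.99 and 6.77 to 7.81 without surgery and at 4.13 to 6.90 and 3.43 to 5.54 after it, and 1 of the 2 probes for Gab3 went the other way. Among the rises by the rule, Tafa2, a secreted chemokine-like protein, was well above background on no unoperated array and was at least 5.32-fold higher, with no call after normexp correction (0.50).

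Genes of differentiated hepatocyte function were lower by small amounts that depended on the scaling and on replicate 1. Of 18 hepatocyte markers 4 fell and none rose, with a median of -0.57. Without replicate 1 none of these markers fell and 1 rose, with a median of -0.33. None fell with median scaling or after quantile normalization, where 1 rose. Their summed signal was 8217 to 10440 in the unoperated and 4211 to 7612 in the operated livers. Alb was 10.41, 10.08, 10.27 and 10.54 against 9.62, 9.71, 10.33 and 9.70, a difference of -0.48 that missed the threshold (adjusted p = 0.166) and was 0.35 after quantile normalization. Asgr1, a subunit of the asialoglycoprotein receptor, differed by -0.75 and Apoa1 by -0.82 (adjusted p = 0.0148 and 0.0255), neither of them called without replicate 1, with median scaling or after quantile normalization.

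Beside 7.44% of all genes lower, apolipoproteins and genes of lipoprotein secretion gave 5 of 19 lower and none higher, fatty acid oxidation and ketogenesis 4 of 32, glycolysis and gluconeogenesis 4 of 27 (and 1 higher), amino acid catabolism and the urea cycle 3 of 35, the one-carbon and methionine cycle 4 of 24 and ribosomal proteins 4 of 29. The share for amino acid catabolism lies near that of all genes, and the shares of the other lists rest on only 4 or 5 genes each. Without replicate 1 these became 1, 0, 1 (and 1 higher), 1, 1 and 2, and after quantile normalization 0 (and 1 higher), 1, 0 (and 1 higher), 2, 1 and 0. Apoa2 differed by -0.95 (adjusted p = 0.00968), lost the call with every other scaling tried, and 1 of its 2 probes went the other way.
The gluconeogenic enzymes Pck1 and G6pc differed by -0.93 and -1.16 (adjusted p = 0.0679 and 0.357), Gcgr, the glucagon receptor, by -0.39 (adjusted p = 0.293) and Glp1r by 0.01 (adjusted p = 0.988). For G6pc the low liver was replicate 1, at 4.22 against 7.55 to 7.71. Srebf1, Fasn and Scd1 of lipid synthesis differed by -0.89, -0.93 and 0.78, and Cyp7a1, the rate-limiting enzyme of bile acid synthesis, by 0.99, none of them called. Lpl, the lipase that frees fatty acids from circulating lipoproteins, rose by 2.58 (adjusted p = 0.00452, and 0.0307 without replicate 1) and Cd36, a fatty acid transporter, by 1.49 (adjusted p = 0.0207, and 0.0968 without it), beside 2 of 25 genes of that list lower.

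Liver-enriched transcription factors gave 3 of 22 lower (beside 7.44% of all genes) and none higher, and 1 lower without replicate 1. Nr1i3, the xenobiotic receptor CAR, lay at 5.30, 5.70, 4.86 and 4.79 without surgery and at 3.47, 4.09, 3.95 and 4.09 after it, a difference of -1.27 (SE 0.30, adjusted p = 0.00694, and 0.0342 without replicate 1). Hnf4a differed by -0.63 (adjusted p = 0.111). Among 27 xenobiotic P450 genes 2 fell and 1 rose, with and without replicate 1. The share that fell was near the 7.44% of all genes lower, and the share that rose was under the 6.33% higher. Cyp2c29, a target of Nr1i3, differed by -1.16 (adjusted p = 0.00379), from 7.76 to 8.29 without surgery to 5.76, 7.25, 7.34 and 6.89 after it.

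Sex-biased genes depended on replicate 1. Of 26 male-biased genes 5 fell and none rose, with a median of -1.24, but without that liver 1 fell and the median was -0.49. Mean levels of the list were -3.45, 0.45, 0.41 and -0.25 in operated replicates 1 to 4 and 0.50 to 0.92 in the unoperated livers, and replicate 1 was the lowest operated liver for 25 of the 26 genes. Hsd3b2, a steroid dehydrogenase, fell in every operated liver, from 4.5 to 5.22 down to 3.07 to 3.76 (-1.61, adjusted p = 0.000303, and 0.00229 without replicate 1). Of 21 female-biased genes 3 rose, and 1 without replicate 1, with medians of 0.76 (0.36 with genes that have only a bound set at it) and 0.06. After normexp correction 1 rose and 2 fell with a median of -0.14, and over the 12 well above background on all 8 arrays 1 rose with a median of 0.05. Fetal liver genes gave 3 of 10 higher and 1 lower, and 2 and 1 without replicate 1. Spink1, a trypsin inhibitor, rose by 3.26 (adjusted p = 0.00269, and 0.0191 without replicate 1), and Afp differed by 1.12 (adjusted p = 0.115).

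Stress and secreted signals were mixed. Of 21 genes of the integrated stress response 1 rose and 4 fell, and 1 rose and 2 fell without replicate 1. Asns, asparagine synthetase, was the one that rose, at -1.17, -0.12, 0.03 and 0.39 without surgery and 1.76, 3.39, 1.48 and 3.20 after it, a difference of 2.67 (SE 0.41, adjusted p = 0.000154) and of 2.91 without replicate 1. Gdf15, a stress cytokine, differed by -2.35 (adjusted p = 0.00562) with overlapping groups. Fgf21, a fasting hormone of the liver, lay between -0.31 and 0.20 without surgery and between -3.80 and -2.87 after it, a difference of -3.26 (adjusted p = 0.0165, and 0.0515 without replicate 1), although the groups did not overlap. Angptl4, the fasting-induced inhibitor of Lpl, differed by -1.69 (adjusted p = 0.00295), and 3 of 19 hepatokines fell and 1 rose (2 and 0 without replicate 1). Igfbp1 differed by -0.27 (adjusted p = 0.706).

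Lysosome and autophagy genes gave 6 of 27 lower and 1 higher, with 5 lower without replicate 1, 2 lower and 2 higher with median scaling, 3 lower and 2 higher after quantile normalization, and 4 in each direction after normexp correction. Mcoln1, the lysosomal calcium channel, and Npc1, the lysosomal cholesterol transporter, differed by -1.08 and -1.09 (adjusted p = 0.000881 and 0.00194), with no overlap in either. Of 17 hypoxia targets 3 rose: Adm, adrenomedullin, by 1.95, Pfkfb4, a regulator of glycolysis, by 2.04 and Hk2, the hexokinase of proliferating cells, by 2.79 (adjusted p = 0.000412, 0.000552 and 0.00222), and all 3 kept their calls without replicate 1. Hk2 was well above background on 1 unoperated array and lost its call after normexp correction (0.86). The hypoxia list as a whole did not rise: 6 differences lay above 0 and 11 below, with a median of -0.08. Without replicate 1 another gene of the list fell. Of the 14 hypoxia targets well above background on all 8 arrays 1 rose, and after normexp correction 2 rose and 1 fell.
Lists with few calls were respiratory chain subunits (1 of 30 higher, 2 lower), periportal genes (2 of 23 higher, 1 lower), ER chaperones (2 of 21 lower), heat shock chaperones (2 of 23 lower), NRF2 targets (1 of 23 higher, 1 lower), lipogenesis (1 of 24 higher, 1 lower), bile acid synthesis and transport (1 of 25 higher, 1 lower), ribosome biogenesis (2 of 23 lower) and the GH, insulin and IGF axis (1 of 22 lower). None of 25 genes of cholesterol synthesis, 32 phase II enzymes and 24 pericentral genes passed in limma, and at an unadjusted p under 0.05 there were 1 higher, 1 higher and 5 lower, and 8 lower.

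**Figure D4:**
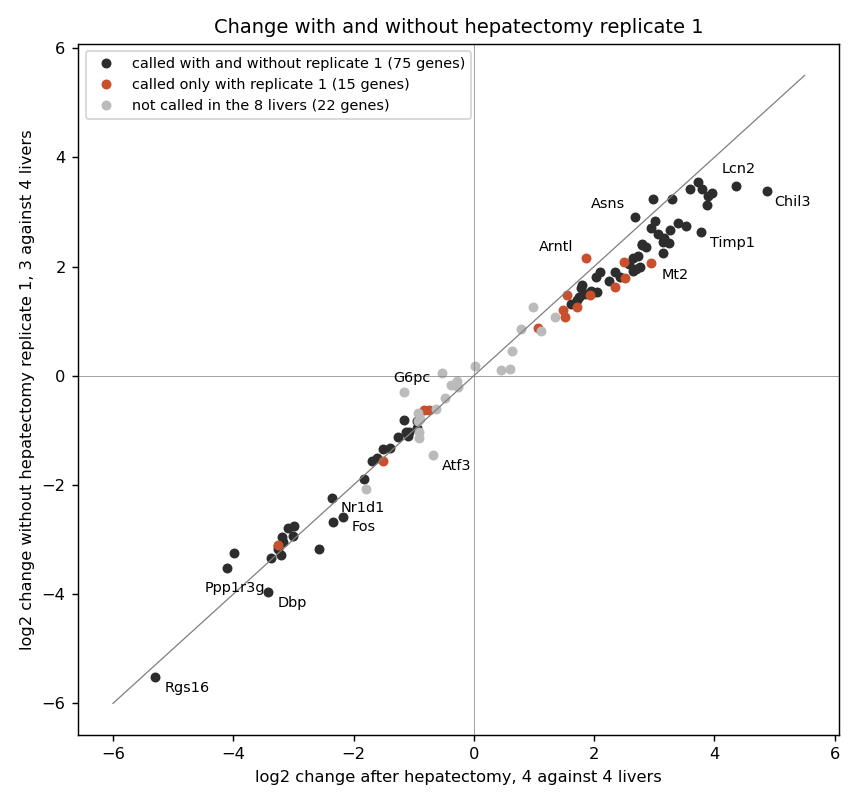
Log2 difference after hepatectomy for the 112 genes named in the text, with all 8 livers on the horizontal axis and without hepatectomy replicate 1 on the vertical axis, and the line of equality in grey. Of these genes 75 were called in both analyses and 15 only with replicate 1. Most of the rises lie below the line, such as Chil3 (4.88 and 3.37), and Rgs16 and Dbp lie below it among the falls.

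The same surgery was also done in 3 other backgrounds of the series (the deficient diet, the agonist, and their combination), each with its own unoperated group. Their effects are given without naming the background, as means, ranges and counts. All unoperated groups of the series were read in the same scan session and all operated groups in another, on other slides. A shared sign across the comparisons therefore cannot tell hepatectomy from scan session. Of the genes called on standard diet, 54.6% had the same sign in all 3 other comparisons, beside 33% of all genes. In 72 genes, 27 higher and 45 lower, the call was made in all 4. S100a8 was among the more general rises, with 3.79 here and 2.39 to 3.74 elsewhere, and so was Lpl, with 2.58 here and 2.06 to 2.46 elsewhere. Median differences of resident Kupffer cell markers were 1.74 here and 0.04 to 0.75 elsewhere, and those of recruited macrophage markers 2.11 and 0.28 to 0.71. Class II genes gave 1.30 here and -0.37 to 0.41 elsewhere, interferon-induced genes 1.05 and -0.66 to -0.13, and matrix genes 1.03 and -0.19 to 0.69. Neutrophil markers gave 1.55 here and 0.78 to 2.985 elsewhere. Mitosis genes had medians of -1.08, 0.64 and 0.66 in the other comparisons and none of the 20 passed the limma test of the difference described next.

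That test, of the effect on standard diet against the mean of the other 3, called 44 genes (0.203%), 25 with the larger value and 19 with the smaller value on standard diet, and 3247 genes had an unadjusted p under 0.05. Without hepatectomy replicate 1 it called 21 genes (0.0967%), 20 of them shared, and the count moved to 27 without unoperated replicate 1, 79 without unoperated replicate 2, 25 without unoperated replicate 4, 23 without hepatectomy replicate 2 and 244 without hepatectomy replicate 3.
Sparc rose by 2.10 here and by -0.04 to 1.08 elsewhere, a difference of 1.64 (adjusted p = 0.00404, and 0.0133 without hepatectomy replicate 1). Mx1 gave 2.79 here and -1.04 to 0.26 elsewhere (3.23, adjusted p = 0.00752 and 0.0303), and Loxl4 2.98 here and -0.33 to 0.17 elsewhere (3.06, adjusted p = 0.0103 and 0.0133). Nr1d1 gave -2.36 here and -0.38 to 2.00 elsewhere (-2.98, adjusted p = 0.0112 and 0.0468). Cela1, an elastase, gave -1.39 here and -0.40 to 2.59 elsewhere (-2.73, adjusted p = 0.00404 and 0.0133). All 5 kept the call without hepatectomy replicate 1. The unoperated groups also differed. Mean levels without surgery were 4.36 here and 5.18 to 5.70 elsewhere for Sparc, and -3.52 here and -2.48 to -1.255 elsewhere for Mx1. For Loxl4 they were -3.13 here and -2.89 to -1.28 elsewhere, and for Nr1d1 3.17 and -0.52 to 2.33. Cela1, at -1.745 here, lay within the range of the others (-2.73 to -1.72). The part of the unoperated levels in these differences was not tested.
Apol10b, Rbl1 and Rtp4 did not. Apol10b, an apolipoprotein L gene, differed from the mean of the others by 3.98 (adjusted p = 0.0423, and 0.135 without hepatectomy replicate 1), Rbl1, the pocket protein p107, by 2.77 (adjusted p = 0.027 and 0.109), and Rtp4 by 2.06 (adjusted p = 0.0172 and 0.0827). The second probe for Rbl1 did not share the direction of the one used.

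**Figure D5:**
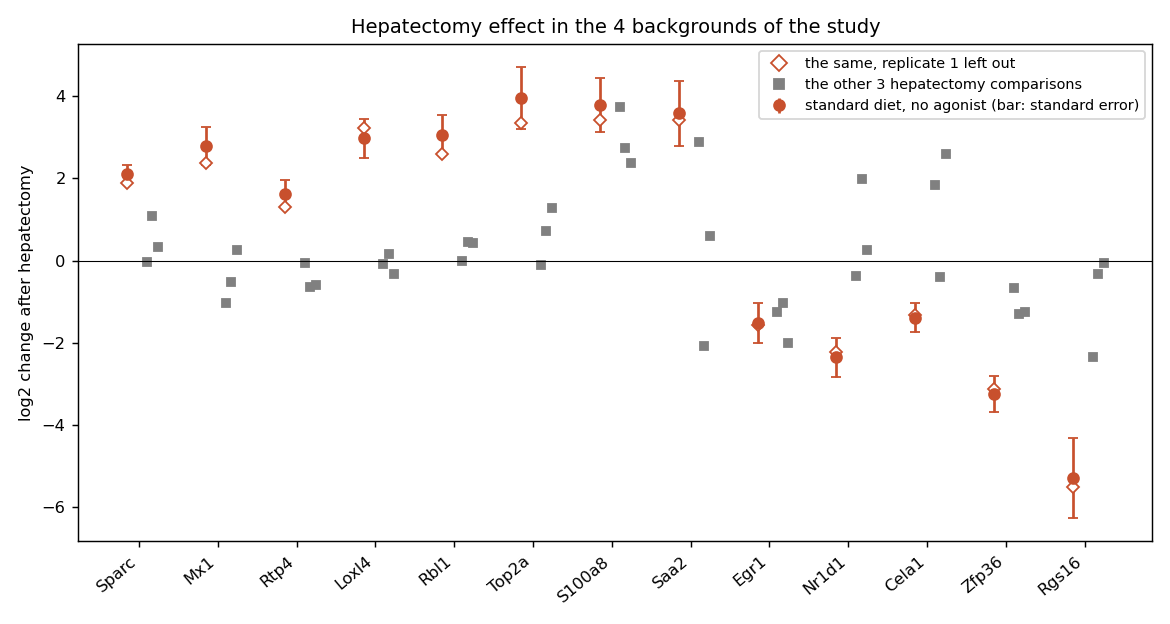
Log2 difference after hepatectomy on standard diet without agonist (orange circle with its standard error, open diamond without hepatectomy replicate 1) and in the other 3 backgrounds (grey squares) for 13 genes. Sparc, Mx1, Rtp4, Loxl4 and Rbl1 lie above all 3 grey squares, Nr1d1 and Cela1 below them, and S100a8 and Egr1 lie near or within the range of the others. The value plotted for Top2a is fitted from unoperated livers not well above background and is not an exact difference.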

How the data were processed

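Liver RNA of 32 samples in 8 groups was read on 1-colour Agilent arrays, and 8 arrays entered the comparison described here. The deposited scanner files hold linear intensity values, written by Feature Extraction 10.7.3.1 per the file headers, and the processed signal used here is background-subtracted. Control spots and outlier spots (5010, 0.264%) were left out, repeated spots averaged, log2 taken and each array's 75th percentile subtracted. After a filter on dim probes, 30139 probes remained for 21710 genes, of which 5890 had several probes. Of the gene names, 15222 matched the reference table.

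All 8 groups were fitted together with limma 3.58.1 in R 4.3.3, with Benjamini-Hochberg adjustment over all genes tested, and the scripts were tested on simulated data. Slide and scan session could not be added as a block, since each group compared lay on 1 slide. The spread between 4 livers a group limits the precision. A bound is the mean of the brighter group over the mean, in the other, of each array's dimmest signal well above background or the probe's own signal, whichever is higher. Same-numbered replicates of the 2 groups did not deviate together (correlations of -0.0182, -0.0368, 0.0288 and 0.00792), so they were not paired.

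The groups, gene lists and tests were chosen with earlier results of these data known. Genes were named where they were among the 12 largest rises or 12 largest falls without overlap that also passed without hepatectomy replicate 1, among up to 6 members of a list by adjusted p, among fixed genes of interest, or among up to 6 genes of the test against the other hepatectomy groups. Exceptions are stated. The alternatives tried were background correction, scaling, the filter, the probe rule, outlier spots, the samples fitted, array weights, the replicate block and leaving out each array. The series' processed value table was not used here. Promoter sequences came from the RefSeq table for GRCm38.p6.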

Additional observations from a re-analysis of the deposited data

Results flagged for a closer look

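Single livers stood apart from the other 3 of their group in 20 of 304 groups of values tested, where chance gives about 1 in 20, by the gap to the nearest liver over the group's range, against Dixon's critical value. In the unoperated group these were Cdkn2c at 0.236 and Hsd3b2 at 4.5 in replicate 2, Rbl1 at -5.73, Egr1 at 3.25, Mrgprg at -2.41 and Egfr at 4.37 in replicate 1, and Olfr481 at -3.81 and Cd36 at -0.345 in replicate 3. Of the list means, growth factors stood apart at -0.355 in unoperated replicate 1 and lipid uptake at 0.316 in unoperated replicate 2.

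Among the operated livers, replicate 1 stood apart in Cdkn2d (1.60), Rbl1 (0.719), Egfr (3.42), G6pc (4.22) and the mean of the clock output list (-0.727). Replicate 2 stood apart in Cdkn2c (-1.01), Bhlhe40 (1.96) and Srebf1 (2.67), and replicate 3 in Saa2 (5.81) and Alb (10.3).

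For 8 named genes the effect of hepatectomy on standard diet differed from the mean of the other 3 backgrounds by the limma test of that difference. The differences were 3.98 for Apol10b, -2.73 for Cela1, 3.06 for Loxl4, 3.23 for Mx1, -2.98 for Nr1d1, 2.77 for Rbl1, 2.06 for Rtp4 and 1.64 for Sparc.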

How the results depend on the processing

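The count of 2989 changed genes became 4505 after normexp background correction, 1063 with only the 8 arrays compared, 474 with the replicate block on those arrays, and 1568 with filter and probes chosen anew without hepatectomy replicate 1. With only the 7 arrays left without that replicate, an alternative chosen after seeing the data, it was 735. Leaving out each array in turn gave 1571 to 2981. The other settings, from 2244 to 3339, stayed within 1.5 times. The replicate numbers did not pair the livers.

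The 44 genes differing from the other hepatectomy effects became 241 with normexp, 76 after quantile normalization, 26 without the filter, 167 with array weights and 49 with the replicate block, and 21 to 244 when each array was left out. This count was not obtained with only the 8 arrays or with the filter set on them.

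Of the 90 named genes called, 33 kept the call under every one of 21 settings and 0 reversed. Normexp correction weakened 10 named calls, median scaling 5 and quantile normalization 4. More were weakened with only the 8 arrays compared (25), with the replicate block on those arrays (46) and without hepatectomy replicate 1 (16). With only the 7 arrays left without that replicate, 36 were weakened. The cause was not tested.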
